A study of Mus musculus with 4 samples.

Results

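Kinesins are motor proteins that walk along microtubules or take their ends apart, using ATP. The kinesin genes were taken as every gene whose symbol is Kif followed by a digit, which gave 40 of the 32285 genes in the annotation of the RNA libraries. Of these, 38 encode kinesin motors. Kif1bp encodes a protein that binds kinesins and holds them off microtubules, and Kif16bos is an antisense transcript of the Kif16b locus. In this family a first set builds the mitotic spindle, moves chromosomes and completes cytokinesis, and is made mainly by dividing cells, while a second set carries vesicles, organelles and ciliary cargo in any cell. In the epidermis, division is a property of basal keratinocytes, and cargo transport continues in cells that have stopped dividing.

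The cells were MK, a mouse keratinocyte line grown in serum-containing medium. Every sample carried the treatment label Dox, and cells bearing a GFP-positive lineage tag were sorted and captured with a 3′ single-cell chemistry. The groups were the MK RNA library and the Diff_MK RNA library, 1 library each, both of the same line and with the same treatment label. What Diff stands for is not spelled out in the labels, so the groups keep their labelled names. The matching tag libraries were not used here. Each group is a single library, so there are no p-values, and each difference below is one between 2 libraries, not between replicated conditions.

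Cells with at least 1000 genes and at most 15% mitochondrial UMIs (unique molecular identifiers, each standing for 1 captured transcript) were kept, leaving 7175 MK cells and 6912 Diff_MK cells with medians of 15599 and 14223.5 UMIs. Only 9 cell barcodes occurred in both sets of kept cells. All 5 basal keratinocyte markers (Krt5, Krt14, Trp63, Itga6, Itgb1) exceeded 5 CPM (UMIs of a gene scaled to a library total of 1000000) in both libraries, and 4 of 5 suprabasal markers did. Summed, the basal markers had 8313 CPM in MK and 16598 CPM in Diff_MK, most of it Krt14, and the suprabasal markers 646 and 623 CPM. The part of this difference in the kinesin results was not tested. No fibroblast, melanocyte or endothelial marker reached 5 CPM, with summed levels between 0.347 and 2.16 CPM per list. Of 5 immune markers Cd68 alone passed, at 6.25 and 5.20 CPM, and of 4 neuronal markers 2 passed, for a summed 95.8 CPM in MK and 82.7 CPM in Diff_MK. Intervals are at the 95% level and exact, and take in counting error alone, not variation between cultures.

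Kinesin transcripts made up 1144 CPM in the MK library (131751 UMIs) and 1091 CPM in the Diff_MK library (113389 UMIs). Of the 40 genes, 25 reached 5 CPM in at least 1 library and are called measured below. A further 11 had at least 1 UMI but stayed below 5 CPM, from Kif3c, a kinesin-2 subunit, with 571 UMIs in MK and 518 in Diff_MK (4.96 and 4.99 CPM), down to Kif28 with 2 and 0 UMIs. They include Kif24, a centriolar kinesin, at 2.09 and 1.67 CPM, Kif7, a regulator of Hedgehog signalling at the cilium tip, at 0.825 and 0.934 CPM, and the neuronal transporters Kif5a and Kif1a, which had 15 and 14 UMIs and 6 and 1 UMIs. Kif12, Kif19a, Kif2b and Kif6 had 0 UMIs in either library, which allows up to 0.0260 CPM in MK and 0.0289 CPM in Diff_MK (3 counts). A transcript is counted once at its 3′ end whatever its length, but capture may differ between genes, so levels were compared between libraries and cells rather than ranked across genes.

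Mitotic and transport kinesins were separated by how each varied across cells with Top2a, which encodes DNA topoisomerase II alpha, an enzyme made from S phase to mitosis. Cells were thinned to 7500 UMIs each, which left 6838 MK and 6277 Diff_MK cells, and Pearson r was taken on log-transformed counts. Members with r of at least 0.2 in the MK library were called Top2a-linked, and the Diff_MK values were not used for this call. The Top2a-linked class held 7 of the 25 measured kinesins, against 1.12% of the 9281 genes other than Top2a above that minimum level. They were Kif20b (r = 0.416), Kif11 (0.336), Kif23 (0.264), Kif2c (0.224), Kif20a (0.215), Kif4 (0.209) and Kif22 (0.208), every one a kinesin of cell division. Just outside the threshold lay Kif18a (0.189), Kif15 (0.179), Kif14 (0.173) and Kif18b (0.169), also kinesins of cell division. The remaining 14 members ran from -0.05 for Kif3b to 0.04 for Kif13a, so a gap without members separated 11 kinesins from 14.

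In the Diff_MK library, which had no part in the call, all 7 Top2a-linked kinesins had r of at least 0.2, from 0.287 to 0.576, and so did the 4 just outside the threshold, from 0.237 to 0.280. The share of all genes with such an r was 4.68% there. None of the other 14 passed, with a range from -0.03 to 0.121. Of the 25 measured members, 23 had a higher r in Diff_MK than in MK, and the exceptions were Kif17 and Kif13b, both below 0 in each library. The r of all genes moved the same way, being higher in Diff_MK for 79.2% of 9281 genes, with a median of 0.0044 in MK and 0.036 in Diff_MK. The number past 0.2 in MK differed between depth settings. These settings also differ in the cells they keep, and unthinned cells were scaled to an equal total, so the part of depth alone was not tested. It was 11 without thinning and 2 with cells thinned to 4000 UMIs, and in the unthinned cells the 11 ran from 0.25 to 0.58 while Kif13a, next in order, had 0.08.

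**Figure D1:**
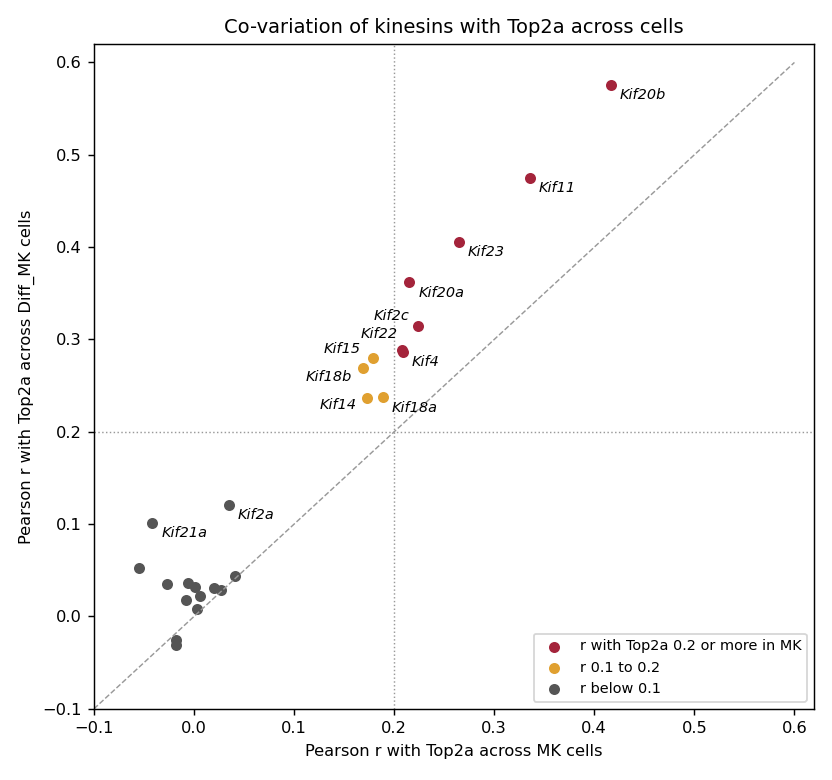
Pearson r of each of the 25 measured kinesins with Top2a across thinned cells, MK library on the horizontal axis and Diff_MK library on the vertical axis, with dotted lines at 0.2 and a dashed line of equality. The 7 Top2a-linked kinesins and the 4 just outside the MK threshold (Kif18a, Kif15, Kif14, Kif18b) lie apart from the other 14, and 23 of 25 points lie above the line of equality (of all genes, which are not plotted, 79.2% had a higher r in Diff_MK).

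Of the 12 measured members on the list of mitotic kinesins by textbook role, 11 were the ones above the gap. The exception was Kif2a, a microtubule depolymerase that acts at spindle poles and also in non-dividing cells, with r of 0.03 in MK and 0.12 in Diff_MK. None of the 12 measured transport and signalling kinesins exceeded 0.0413 in MK or 0.101 in Diff_MK. Across cells the Top2a-linked kinesins varied with each other, with a median r of 0.121 over their 21 pairs in MK and 0.207 in Diff_MK. The 153 pairs of the class not linked to Top2a had 0.00378 and 0.0125. In MK the choice of the classes by r with Top2a in the same cells favours this, so it is given as a description. The Diff_MK cells had no part in the choice. The closest pair in each library was Kif20b and Kif11, with r of 0.238 and 0.363. These correlations describe cells of 1 library each, which share its preparation.

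Most kinesins above the gap with a promoter entry shared a short promoter sequence. Promoters of 21 of the 25 measured members were found in a RefSeq table on GRCm38.p6, as windows of 300 bases from 250 before the annotated start to 50 from it on. Kif20a, Kif5b, Kif13b and Kif1bp had no entry. A cell cycle genes homology region (CHR, a 6-base element of many late cell cycle promoters) was searched as TTTGAA or TTCGAA, and a CCAAT box, which often lies upstream of it, as CCAAT, both on either strand. The CHR letters were present in 6 of 6 promoters of Top2a-linked kinesins and in 3 of the 4 just outside the threshold, Kif18a being without. They were present in 0 of 13 promoters (11 genes) of the other members, against 19.2% of all 32851 promoters in the table. CCAAT letters occurred in 4 of the 6, in 6 of the 10 above the gap and in 4 of the 13 below it, against 37.4% of all promoters. A match is a description of letters and not of a bound site.

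The promoters of the 3 kinesins with the highest r, and of Kif21a as the most abundant member below the gap with an entry, show the difference, with CHR and CCAAT letters in capitals on either strand. The windows are chr19:34922108-34922407 (plus strand) for Kif20b, chr19:37376132-37376431 (plus) for Kif11, chr9:61946750-61947049 (minus) for Kif23 and chr15:91049902-91050201 (minus) for Kif21a.
Kif20b: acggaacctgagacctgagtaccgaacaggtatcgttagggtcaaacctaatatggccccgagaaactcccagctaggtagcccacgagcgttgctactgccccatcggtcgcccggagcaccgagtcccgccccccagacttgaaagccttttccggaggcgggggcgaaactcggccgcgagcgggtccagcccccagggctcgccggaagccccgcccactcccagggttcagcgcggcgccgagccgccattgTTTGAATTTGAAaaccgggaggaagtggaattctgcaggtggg
Kif11: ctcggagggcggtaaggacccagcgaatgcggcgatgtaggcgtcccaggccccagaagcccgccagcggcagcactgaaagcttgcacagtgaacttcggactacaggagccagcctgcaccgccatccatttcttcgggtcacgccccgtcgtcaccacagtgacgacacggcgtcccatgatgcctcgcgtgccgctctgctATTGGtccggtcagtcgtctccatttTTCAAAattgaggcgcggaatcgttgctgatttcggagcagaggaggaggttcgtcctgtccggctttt
Kif23: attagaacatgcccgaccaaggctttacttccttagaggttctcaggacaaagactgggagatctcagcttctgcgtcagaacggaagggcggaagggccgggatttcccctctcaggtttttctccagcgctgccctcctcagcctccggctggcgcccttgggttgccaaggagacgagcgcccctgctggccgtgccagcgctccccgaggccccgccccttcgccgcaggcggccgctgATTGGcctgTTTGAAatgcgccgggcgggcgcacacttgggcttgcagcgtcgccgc
Kif21a: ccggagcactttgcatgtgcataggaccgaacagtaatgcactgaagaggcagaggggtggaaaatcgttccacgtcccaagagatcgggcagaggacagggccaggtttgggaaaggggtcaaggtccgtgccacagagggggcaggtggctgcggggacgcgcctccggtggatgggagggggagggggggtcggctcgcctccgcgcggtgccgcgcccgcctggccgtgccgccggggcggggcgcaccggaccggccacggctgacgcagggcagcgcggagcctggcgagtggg
Counting the annotated start as 0, the CHR letters began at 7 and 13 in Kif20b, as adjacent copies, at -19 in Kif11 and at 2 in Kif23. The CCAAT letters began at -45 in Kif11 and at -7 in Kif23, both as ATTGG, the reverse complement, and Kif20b had none. The CHR of Kif11 was likewise read from the other strand, as TTCAAA. Kif21a had neither motif in its window. The motifs did not overlap in these windows.

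Every measured kinesin of the mitotic list had a lower level in the Diff_MK library than in the MK library, as did 69.2% of all genes. The 7 Top2a-linked kinesins summed to 353 CPM in MK and 264 CPM in Diff_MK, a ratio of 0.749 (interval 0.738 to 0.761). The 12 members of the mitotic list had a median log2 ratio (Diff_MK over MK) of -0.40, against -0.16 over the 9282 genes that reached 5 CPM in either library, and 12 of 12 lay below the median of genes measured in both libraries (-0.15). The 12 transport and signalling kinesins had a median log2 ratio of 0.11, with 5 lower and 7 higher in Diff_MK. At the 1.5-fold mark only 2 of 25 measured kinesins were lower and 1 was higher, and 8.20% of all genes were lower and 4.91% higher by that rule (7.57% and 4.51% of genes that reached 10 CPM). At a 1.2-fold mark 13 kinesins were lower and 4 higher, against 35.8% and 12.4% of all genes. Scaling by the median gene ratio in place of total UMIs gave 0 lower and 3 higher, and weighting each cell equally gave 6 lower and 1 higher. In such sums fewer cells with these transcripts and less of them per cell cannot be told apart, and a split of the cells by Top2a UMIs is given further on.

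**Figure D2:**
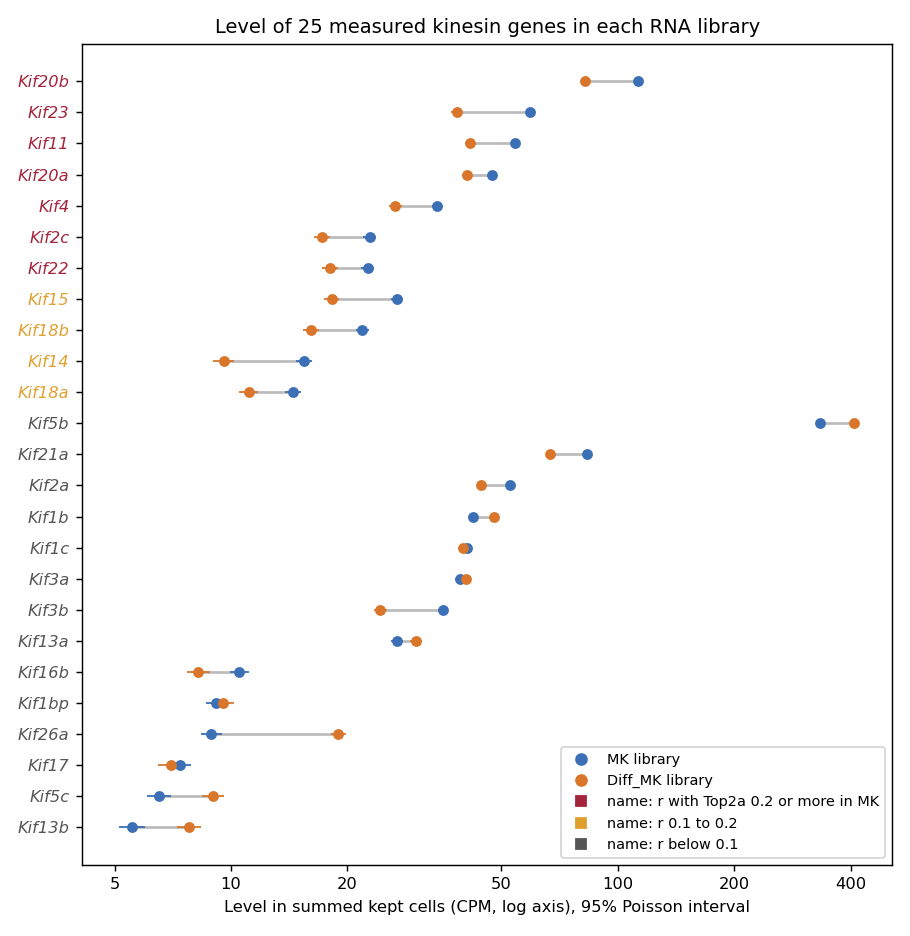
Level of the 25 measured kinesins (CPM, log axis) in the summed cells of the MK library and the Diff_MK library, with 95% Poisson intervals, names coloured by r with Top2a in MK. All 11 kinesins above the gap lie further left in Diff_MK (of all genes, which are not plotted, 69.2% were lower), while Kif26a shows the widest gap, from 8.90 to 18.96 CPM.

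Among kinesins of the spindle midzone, the overlap of antiparallel microtubules where cytokinesis is organised, 4 of 4 were lower in Diff_MK, against 69.2% of all genes. Kif23 (chr9:61915905-61946774, minus strand, GRCm38), the motor of the centralspindlin complex, had 59.2 CPM in MK and 38.3 CPM in Diff_MK, 1.55-fold lower. Kif14 (chr1:136466343-136531511, plus), which works at the midbody with citron kinase, had 15.5 and 9.59 CPM, 1.61-fold lower, and these were the 2 kinesins past the 1.5-fold mark. Kif20b (chr19:34922361-34975745, plus), a kinesin-6 of late cytokinesis, had 112.8 and 82.2 CPM (ratio 0.729, interval 0.709 to 0.749). Kif20a, which brings the chromosomal passenger complex to the midzone, differed least of the mitotic list at 47.3 and 40.7 CPM (ratio 0.860, 0.826 to 0.895).

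The 6 kinesins of spindle assembly and length summed to 193 CPM in MK and 148 CPM in Diff_MK, and 6 of 6 were lower, against 69.2% of all genes. Kif11 (chr19:37376403-37421859, plus), the tetrameric motor that pushes spindle poles apart, had 54.2 and 41.4 CPM (ratio 0.764, 0.734 to 0.794). Kif15, which helps keep the spindle bipolar, had 26.8 and 18.2 CPM (0.678, 0.640 to 0.719). Kif2c, the centromeric depolymerase also known as MCAK, had 22.9 and 17.2 CPM. Kif18a, which damps chromosome movement at microtubule plus ends, had 14.5 and 11.1 CPM, and its relative Kif18b had 21.9 and 16.1 CPM. Kif2a stood closer to equal, at 52.7 and 44.4 CPM. The chromokinesins, which bind chromosome arms and push them outward, were lower as well, Kif4 at 34.1 and 26.6 CPM and Kif22 at 22.6 and 18.0 CPM.

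Transport kinesins went in both directions. Kif5b, the ubiquitous heavy chain of kinesin-1, was the member with the most counts, at 334 CPM in MK and 408 CPM in Diff_MK (ratio 1.22, 1.21 to 1.24), and the kinesin-1 chain Kif5c had 6.52 and 8.98 CPM (1.38, 1.25 to 1.52). The 12 transport and signalling kinesins summed to 640 CPM in MK and 709 CPM in Diff_MK (ratio 1.11, 1.10 to 1.12). Kif5b alone differed by more CPM than this sum did, so the direction of the sum rested on that gene. By group, the summed ratio was 1.22 for kinesin-1, which holds Kif5b, and 1.06 for kinesin-3. It was 0.877 for kinesin-2 and 0.933 for the group of ciliary, Hedgehog and other members. The 18 members not linked to Top2a also hold Kif1bp and the division kinesins Kif2a, Kif14, Kif15, Kif18a and Kif18b. The summed ratio of these 18 was 1.05 (1.04 to 1.06), but without Kif5b it was 0.916 (0.905 to 0.928), so its direction rested on that gene. The paired subunits of heterotrimeric kinesin-2, the motor of ciliary transport, differed from each other. Kif3a stood at 39.1 and 40.5 CPM (1.04, 0.992 to 1.08), while Kif3b (chr2:153291413-153333390, plus) had 35.4 and 24.3 CPM (0.688, 0.654 to 0.723), 1.45-fold lower. Their accessory subunit Kifap3 had 40.8 and 40.7 CPM, close to Kif3a, and Kif17, a homodimeric kinesin-2, had 7.38 and 6.98 CPM.

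Kinesin-3 motors carry vesicles and endosomes, and 3 of 5 measured were higher in Diff_MK, while 69.2% of all genes were lower. Kif13b, a partner of the polarity protein Dlg1, had 5.56 and 7.80 CPM (1.40, 1.26 to 1.56), Kif1b 42.1 and 47.7 CPM, and Kif13a, a motor of recycling endosomes, 26.9 and 30.1 CPM. Kif16b, which moves early endosomes, was lower at 10.5 and 8.24 CPM, and Kif1c stood at 40.6 and 39.8 CPM with an interval of its ratio that included 1 (0.938 to 1.02). Of the remaining members, Kif21a (chr15:90933276-91049948, minus), a kinesin-4 that restrains microtubule growth at the cell cortex, had 83.1 and 66.95 CPM (0.805, 0.781 to 0.831). Kif26a (chr12:112146208-112181747, plus), an atypical kinesin without motor ATPase activity, had 8.90 and 18.96 CPM, 2.13-fold higher (1.98 to 2.30) and the only measured member past 1.5-fold in that direction. Kif1bp, the kinesin-binding protein gene, had 9.15 and 9.55 CPM (0.956 to 1.14). Under median scaling the sign of Kif1c and Kif17 changed, and that of no other measured member.

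The share of cells with a Top2a UMI differed between the libraries. After thinning, 72.7% of MK cells (71.6 to 73.7%) and 47.8% of Diff_MK cells (46.6 to 49.1%) had at least 1 Top2a UMI, and Top2a itself had 378 and 267 CPM in the unthinned sums. Free RNA in droplets can give such UMIs to cells that do not express a gene. For comparison, in the 10% of cells with the fewest counts of the S phase and G2/M lists described further on, which leave out Top2a, 10.2% of 683 MK cells (8.08 to 12.8%) and 4.15% of 627 Diff_MK cells (2.73 to 6.02%) had a Top2a UMI, at median depths of 15490 and 12060 UMIs before thinning. After thinning these cells held up to 5 list UMIs each in MK and up to 1 in Diff_MK, with medians over all cells of 23 and 12, so the sets were not alike. The part of free RNA in the results was not tested beyond these shares. Before thinning, cells with Top2a had more UMIs than cells without, with medians of 16431.5 and 13990 in MK and 17862 and 12644 in Diff_MK. Depth was equal after thinning, and the part of RNA content per cell in the results was not tested.

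The split by Top2a that follows uses the MK cells in which the Top2a-linked class was chosen, so it is given as a description. Within cells with at least 1 Top2a UMI, the 7 Top2a-linked kinesins together had 421 CPM in MK and 426 CPM in Diff_MK, a ratio of 1.01 (0.985 to 1.04). Singly they lay between 0.901 (Kif23, interval 0.843 to 0.962) and 1.10 (Kif20a, 1.02 to 1.18), and these were the only ones whose interval left out 1. Kif20b, for example, had 135.6 and 135.2 CPM in such cells. In cells with 0 Top2a UMIs the same 7 kinesins had 126 CPM in MK and 56.7 CPM in Diff_MK, a ratio of 0.450 (0.419 to 0.483), and 7 of 7 had intervals below 1. The low end was Kif23, at 25.8 and 8.59 CPM (0.333, 0.279 to 0.395), followed by Kif11 at 14.1 and 5.58 CPM (0.395) and Kif20b at 34.5 and 14.4 CPM (0.418). In such cells, then, transcripts of the Top2a-linked kinesins were more abundant in MK than in Diff_MK. Of the 18 measured members not linked to Top2a, 13 had a ratio below 1 there, and their summed ratio was 0.980 (0.957 to 1.004). Singly, their intervals lay below 1 for 8 members and above 1 for 4. The share of all genes lower in these cells was not computed, so the 7 of 7 and 13 of 18 have no matching background. In the summed libraries 69.2% of all genes were lower. A cell can have 0 Top2a UMIs by sampling alone, and how many did was not tested.

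Taking the MK level in each of 4 Top2a bins with the Diff_MK share of cells per bin gave 264 CPM for the Top2a-linked class, between the thinned values of 341 CPM in MK and 233 CPM in Diff_MK. At equal bin shares the ratio of the libraries was 0.973 (MK shares) or 0.884 (Diff_MK shares), against 0.684 for the thinned cells as they were. The class was chosen by r with Top2a in the same MK cells. That choice favours a change of its ratio at equal bin shares, so these ratios are given as a description. For the class not linked to Top2a these ratios were 1.08, 1.05 and 1.03. Since each thinned cell weighs the same, the thinned ratio differs from the 0.749 of summed UMIs.

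Kif14 and Kif15, just outside the threshold, behaved like the linked members in cells with 0 Top2a UMIs, with ratios of 0.301 (0.198 to 0.452) and 0.344 (0.263 to 0.447), but stayed lower in cells with Top2a too, at 0.782 (0.684 to 0.893) and 0.898 (0.815 to 0.988). Some members below the gap also differed more in cells with 0 Top2a UMIs than in cells with Top2a. How many of all genes did so was not computed. Kif3b had 41.7 CPM in MK and 20.2 CPM in Diff_MK there (0.485, 0.429 to 0.547), against 32.6 and 26.4 CPM in cells with Top2a (0.810). Kif21a had 90.6 and 53.5 CPM (0.591, 0.547 to 0.639), against 80.3 and 75.7 CPM (0.943, 0.888 to 1.001), and Kif2a had ratios of 0.685 and 0.976. Kif26a was higher in Diff_MK in both kinds of cell, 2.37-fold (1.91 to 2.95) and 2.50-fold (2.16 to 2.90), as was Kif5b, 1.202-fold and 1.233-fold. Kif5c had a ratio of 1.58 (1.302 to 1.92) in cells with Top2a and 0.907 (0.707 to 1.17) in cells without.

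**Figure D3:**
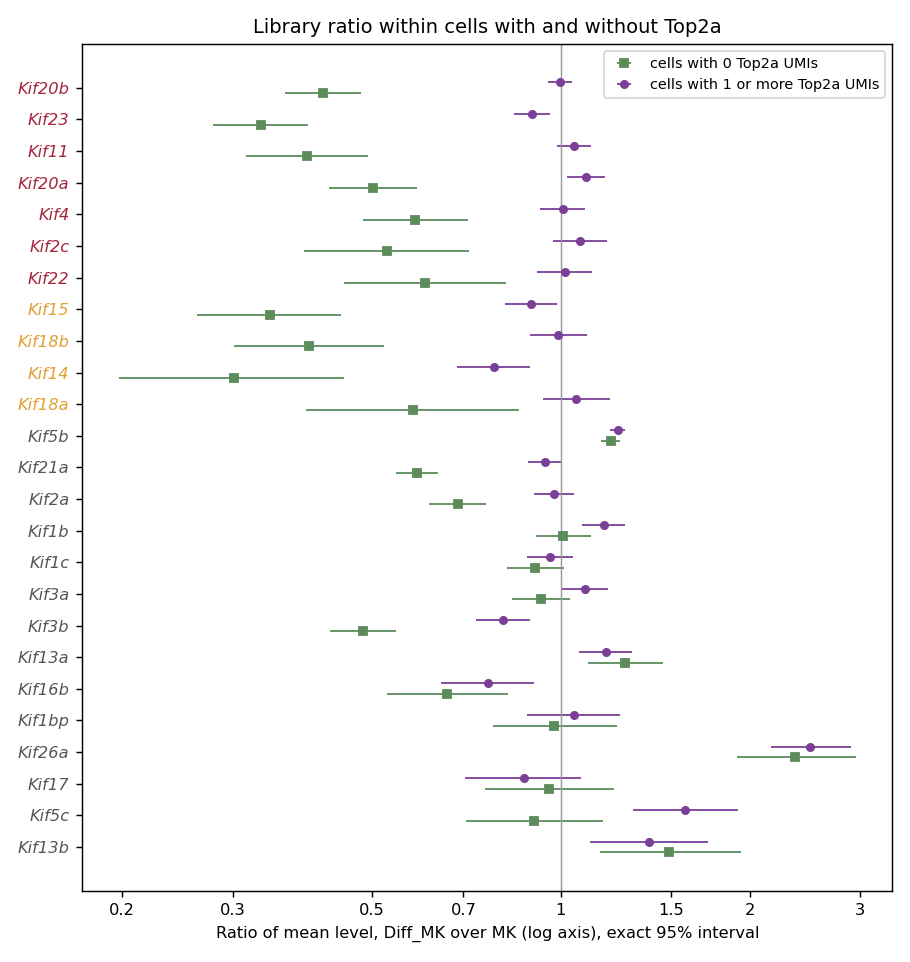
Ratio of the mean level in Diff_MK to that in MK (log axis, exact 95% intervals) for each measured kinesin, within thinned cells with 0 Top2a UMIs (squares) and with 1 or more (circles), in the order of the plot of levels. The 7 Top2a-linked kinesins lie from 0.333 to 0.608 in cells without Top2a and from 0.901 to 1.10 in cells with it, while Kif26a and Kif5b lie above 1 in both.

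Levels of the 11 kinesins above the gap were higher in cells with 10 or more Top2a UMIs than in cells with 0, in both libraries. In MK this restates the r that chose the Top2a-linked class and is given as a description, while the Diff_MK cells had no part in the choice. In MK, Kif20b had 34.5 CPM in cells with 0 Top2a UMIs, 92.0 CPM with 1 to 2, 160 CPM with 3 to 9 and 210 CPM with 10 or more, and in Diff_MK 14.4, 86.3, 168 and 225 CPM. From cells with 0 to cells with 10 or more, Kif11 was 9.18-fold higher in MK (7.21 to 11.7) and 21.9-fold higher in Diff_MK (16.4 to 29.2). Kif18a, just outside the r threshold, showed 8.42-fold and 14.6-fold, above most linked kinesins in both libraries. The Top2a-linked class as a whole was 5.33-fold (4.84 to 5.86) and 12.0-fold (10.7 to 13.4) higher. Kif20a had the lowest MK ratio of the class at 3.31, and Kif4 the lowest in Diff_MK at 4.94. Only 113 MK and 84 Diff_MK cells had 10 or more Top2a UMIs. In Diff_MK, Kif15, Kif4 and Kif22 had lower levels in these cells than in cells with 3 to 9.

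Kif5b was nearly level across these bins, from 331 to 380 CPM in MK and from 405 to 414 CPM in Diff_MK, with a highest-to-0 ratio of 1.11 (0.987 to 1.24) and 0.982 (0.864 to 1.11). Kif3b and Kif21a had intervals below 1 for this ratio in MK, and intervals that included 1 in Diff_MK. Kif3b was lower in MK cells with 10 or more Top2a UMIs than in those with 0, at 27.1 and 41.7 CPM (0.651, 0.409 to 0.986), and about equal in Diff_MK at 20.6 and 20.2 CPM (1.02, 0.540 to 1.76). Kif21a had 67.3 and 90.6 CPM in MK (0.743, 0.559 to 0.968), against 66.7 and 53.5 CPM in Diff_MK (1.25, 0.894 to 1.69). Kif2a had 43.7 and 48.5 CPM in MK (0.901, 0.629 to 1.25) and 58.7 and 33.2 CPM in Diff_MK (1.77, 1.24 to 2.46).

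**Figure D4:**
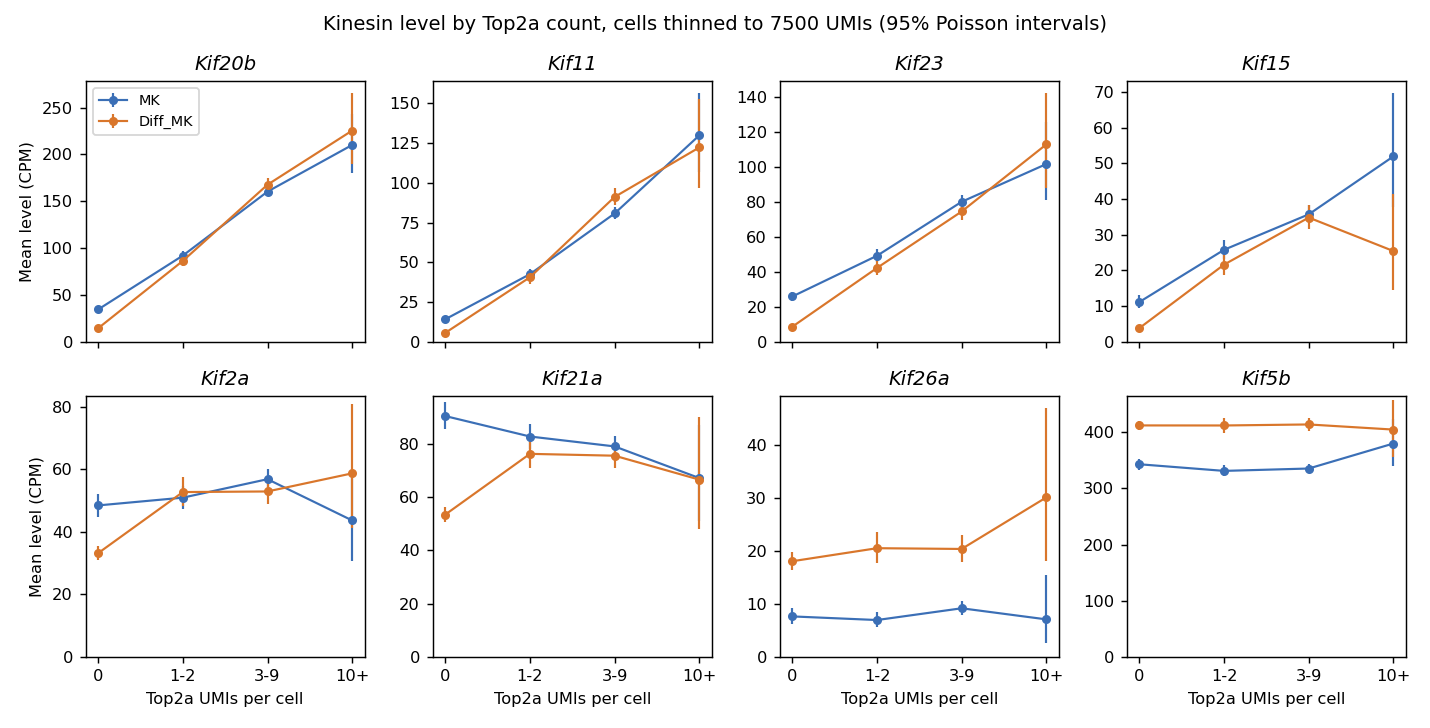
Mean level (CPM, linear axes from 0) of 8 kinesins in thinned cells with 0, 1 to 2, 3 to 9 and 10 or more Top2a UMIs, for the MK and Diff_MK libraries with 95% Poisson intervals. Kif20b, Kif11 and Kif23 are higher from bin to bin in both libraries and start lower in Diff_MK, Kif15 goes from 11.1 to 51.9 CPM in MK but is lower in the last bin of Diff_MK (25.4 CPM, from 16 UMIs) than in the bin before, and Kif5b stays between 331 and 414 CPM.

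Cells with at least 1 Top2a UMI were also ordered by their balance of S phase and G2/M transcripts. A pair of lists without kinesins or Top2a, 15 S phase genes such as Pcna and Mcm5 and 15 G2/M genes such as Ccnb1 and Cdc20, served as clocks. All 7 Top2a-linked kinesins, and the 4 just outside the threshold, had a higher r with the summed G2/M list than with the S list in both libraries. This was not particular to them, since 13 (MK) and 11 (Diff_MK) of the 14 kinesins below the gap, and 61.2% and 55.3% of all genes, had it too, so the size of the difference is what follows. Kif20b had 0.449 and 0.169 in MK, Kif20a 0.329 and 0.132, and Kif15 only 0.169 and 0.131, the closest pair of values among the 11. The order was by the share of G2/M counts in the counts of both lists and the cells were divided into 5 bins of equal size, 994 cells each in MK and 600 or 601 in Diff_MK.

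From the first to the last of these bins Kif18a was 4.65-fold higher in MK (6.44 to 29.9 CPM) and 3.35-fold higher in Diff_MK, Kif22 4.20-fold and 3.69-fold, and Kif14 3.49-fold and 3.97-fold. Kif2c was 3.36-fold and 4.75-fold higher, Kif20a 3.28-fold and 3.55-fold, and Kif11 3.01-fold and 3.62-fold. The centralspindlin motor Kif23 showed 2.61-fold and 2.21-fold. Kif15 stood apart, at 25.2 CPM in the first and 32.7 CPM in the last bin of MK (1.298-fold, 1.07 to 1.58) and 24.0 and 29.6 CPM in Diff_MK (1.23-fold, 0.9498 to 1.61), with its highest level in bin 4 of MK and bin 3 of Diff_MK. Apart from Kif15, the kinesins above the gap were highest in bin 5 of MK, and in Diff_MK all but Kif23 and Kif20a, which were highest in bin 4, did the same. Ordering by measured counts makes neighbouring bins overlap, and no order was read between kinesins with overlapping intervals.

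**Figure D5:**
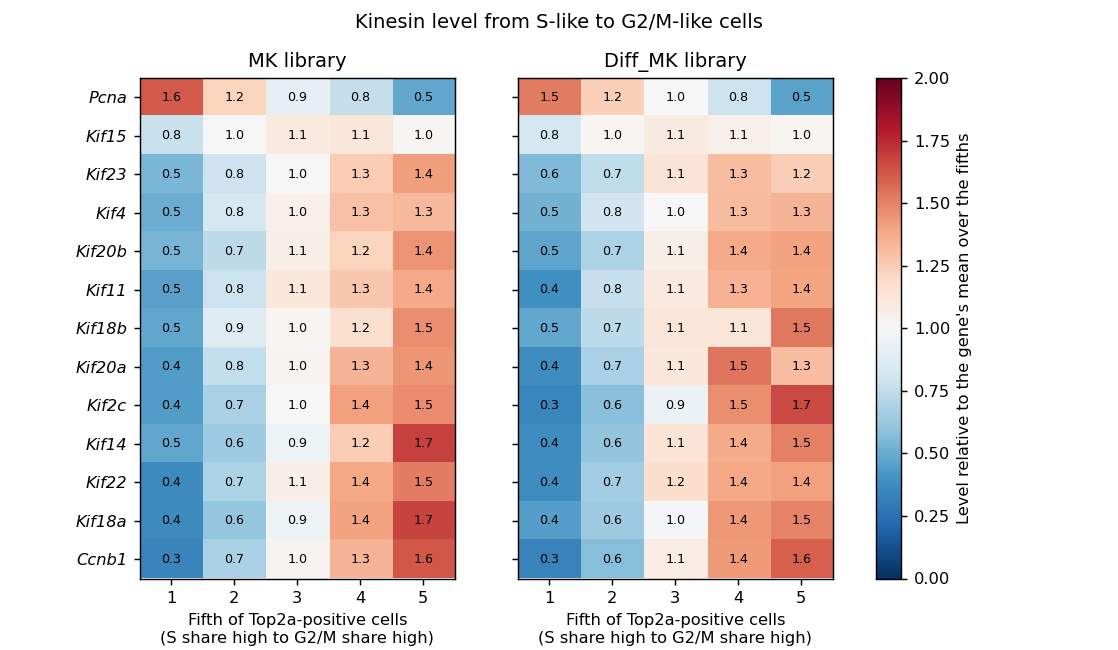
Level of the 11 kinesins above the gap in 5 equal bins of Top2a-positive cells, ordered from a high share of S phase counts (1) to a high share of G2/M counts (5), relative to each gene's mean over the bins, with Pcna and Ccnb1 as list members for comparison. Kif15 changes least, between 25.2 and 36.1 CPM in MK and between 24.0 and 31.5 CPM in Diff_MK, and the other kinesins are highest in bin 4 or 5.

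The genes most like the 3 kinesins with the highest r with Top2a were also cell division genes, which that choice favours, so they are listed as a description. Over 6838 MK cells and the 7002 genes that reached 10 CPM in each library, Kif20b was closest to Top2a (r = 0.416), Ube2c (0.397), which encodes a ubiquitin-conjugating enzyme of the anaphase-promoting complex, Cenpf (0.390), Prc1 (0.342) and Hmgb2 (0.2999). In Diff_MK these had r of 0.576, 0.559, 0.532, 0.439 and 0.458. Kif11 and Kif23 had Top2a, Ube2c and Cenpf as their closest 3 genes, and Kif11 then Prc1 and Mki67, Kif23 then Hmgb2 and Tpx2. The abundant members below the gap had no close companion. The highest r of Kif5b was 0.068 (Malat1), that of Kif2a 0.055 (Smarca5) and that of Kif21a 0.141 (Ostf1), and in Diff_MK Malat1 had -0.0017 with Kif5b.

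Motors and partners outside the symbol rule were taken from lists of known interactors. Cenpe, the kinetochore kinesin whose symbol does not begin with Kif, had 86.2 and 72.4 CPM and r with Top2a of 0.393 in MK and 0.545 in Diff_MK. The kinesin-14 genes Kifc1 and Kifc5b, near-identical copies whose reads may have been divided between them, had 14.3 and 11.4 CPM and 5.63 and 4.48 CPM. Of 14 measured spindle and midzone partners, 14 were lower in Diff_MK, against 69.2% of all genes, and 2 were lower by 1.5-fold or more, against 8.20%. Their median log2 ratio was -0.42 against -0.16, and 12 had r of at least 0.2 in MK, against 1.12%. Numa1 (-0.04, with an interval that included no difference) and Nusap1 (-0.10) lay above the all-gene median. Aurka, Tpx2, Plk1 and Nusap1 are also on the G2/M list. The Kif23 partner Racgap1 had 75.7 and 50.4 CPM, and Prc1, which bundles the midzone and binds Kif4, had 109.9 and 89.2 CPM. The passenger complex genes Birc5 (193 and 131 CPM), Incenp (105 and 71.4 CPM) and Aurkb (52.7 and 37.3 CPM) were lower too.

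On the transport side, 7 of 9 measured light chains and adaptors were lower and 2 higher, against 69.2% of all genes lower, with 0 past 1.5-fold and 0 with r of at least 0.2. Their median log2 ratio was -0.00372, above the -0.16 of all genes, and of the 7 lower ones Kifap3, Trak1 and Rhot1 had intervals that included no difference. Klc3, a kinesin light chain, was the one furthest from equal, at 24.3 and 36.2 CPM (1.49, 1.42 to 1.56), while Klc1 had 35.6 and 32.6 CPM. The adaptor Spag9 had 122 and 116 CPM. The dynein motor, which runs the opposite way along microtubules, had 3 of 5 measured genes lower, with a median log2 ratio of -0.10, and its heavy chain gene Dync1h1 stood at 86.8 and 91.5 CPM.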

How the data were processed

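The deposited matrices hold raw UMI counts, 1 row per gene and 1 column per cell. Cell Ranger 6.1.2 made them, per the file headers, and the submitters' processing notes name mm10. Which annotation was counted is not given in the sources used here. Titles give 4 groups with 1 sample in each, and the 2 RNA libraries were used.

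The files held 7780 MK and 7569 Diff_MK barcodes before filtering. UMIs of kept cells (115181759 in MK and 103885150 in Diff_MK) were summed and scaled by library total to CPM. Ratios carry exact conditional binomial intervals, levels Poisson intervals and shares of cells Clopper-Pearson intervals. Thinning drew 7500 UMIs per cell without replacement and left out 337 MK and 635 Diff_MK shallower cells. Doublets were not removed. Promoter sequences came from RefSeq. Steps ran in numpy 2.4.6 and scipy 1.17.1 and were tested on simulated data.

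The members and lists were chosen with earlier results of these data known. Every measured kinesin was named, with the 5 genes most like the 3 of highest r and the 3 most abundant not linked to Top2a, and members of partner lists, mainly those with the highest level. Kif2a, Kif21a and others below the gap were described in more detail after their values were seen. Alternatives were other scalings, cell filters, thinning depths and thresholds. Moving the 4 kinesins just outside the threshold, leaving out Kif5b, and the share of Top2a in cells with few cell cycle counts were added after seeing the data.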

Additional observations from a re-analysis of the deposited data

How the results depend on the processing

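The number of Top2a-linked kinesins was 11 at a threshold of 0.1 or without thinning, and 2 at a threshold of 0.3 or with cells thinned to 4000 UMIs. Spearman's rho gave 7 and the stricter cell filter (2000 genes, 10% mitochondrial UMIs) 5. The summed ratio of this class was 0.832 under median scaling and 0.659 with each cell weighted equally. That of the other class was 1.16 and 1.03, 1.09 without the 4 kinesins just outside the threshold, and 0.916 without Kif5b, which turned its direction. At thresholds of 1.2-fold, 13 kinesins were lower and 4 higher (35.8% and 12.4% of all genes), and at 2-fold 0 were lower. Median scaling gave 0 lower and 3 higher at 1.5-fold, and equal cell weights 6 lower. Within cells with 3 or more Top2a UMIs the linked class had a ratio of 1.06. With the 4 near kinesins moved to the linked class, the other class had 1.14 in cells with Top2a and 1.005 in cells without. The cause of these changes was not tested, except that a higher threshold cannot leave more genes past it. Of the 25 single ratios, the sign changed for 2 under median scaling, 1 (Kif17) under equal cell weights and 0 under the stricter filter. No paired analysis was possible because each group holds 1 library.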
